A study of Mus musculus with 44 samples.

Results

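Acetylation of lysine 27 on histone H3 (H3K27ac) was measured by chromatin immunoprecipitation sequencing in neuronal nuclei of the mouse cortex (COR), and adults of the genotype Polg(D181A) were set against wild type (WT). The 4 cortical H3K27ac libraries, 2 Polg and 2 WT, were taken from the 44 libraries of the series by their labels, with all 141298 peaks of their count table. Both groups were C57BL/6 mice, and nuclei carrying the neuronal protein NeuN were collected by flow sorting from snap-frozen tissue. The same mark in the paraventricular thalamic nucleus (PVT), caudate putamen (CP) and nucleus accumbens (NAC), with 2 Polg and 2 WT libraries each, was used for comparison. The labels do not say whether libraries came from separate or pooled animals, or whether regions came from the same mice, so p-values measure only the spread between these libraries.

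H3K27ac is laid down by the acetyltransferases p300 and CBP and is bound by bromodomain proteins. It marks active promoters and active enhancers, and long stretches of it cover genes that define a cell type. Polg codes for the polymerase that copies mitochondrial DNA. The labels give no promoter. From general knowledge of this line, Polg(D181A) mice carry the mutant form as a transgene driven by the Camk2a promoter, which is active in forebrain excitatory neurons, and they keep their own Polg gene.

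Total counts were 82399920 and 173102707 in the Polg libraries, against 197650530 and 52566179 in the WT libraries. Peaks tended to be either empty or filled. In Polg, 29.6% and 19.0% of peaks had no count, against 15.7% and 41.9% in WT. Peaks above 0 had a median of 542 and 964 counts in Polg, against 1007 and 405 in WT, and at most 4.06% of peaks held 1 to 20 counts in any of the 4 libraries. Both Polg libraries had counts while both WT libraries were empty at 9071 peaks (6.42%), and the reverse held at 6746 peaks (4.77%). All 4 libraries had counts at 52649 peaks (37.3%). Whether duplicate reads were removed is not given in the sources used here.

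Agreement between libraries grew with the width of the peak. Over all peaks the rank correlation of counts was 0.427 between the Polg libraries, 0.370 between the WT libraries and 0.208 to 0.248 between the genotypes. Among the 32351 peaks of 251 bp, the narrowest width, it was 0.0145 between the Polg libraries, -0.0649 between the WT libraries and -0.397 to -0.138 between the genotypes. Among the 555 peaks of 8003 to 34661 bp it was 0.656 between the Polg libraries, 0.378 between the WT libraries and 0.321 to 0.693 between the genotypes. These correlations run across peaks of single libraries that share a peak set, and they describe the libraries only. In the widest class the WT libraries resembled each other less than the closest Polg and WT pair did.

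**Figure D1:**
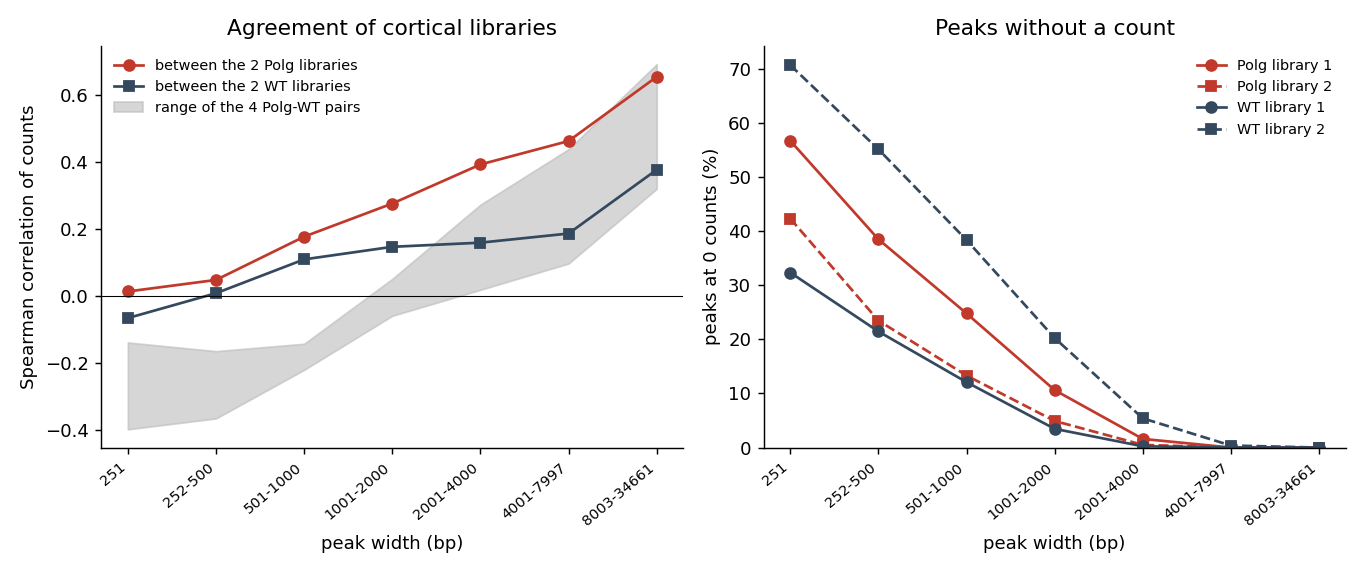
Left: Spearman correlation of cortical H3K27ac counts across peaks, by peak width in bp, between the 2 Polg libraries (circles), the 2 WT libraries (squares) and the range of the 4 Polg-WT pairs (grey). Right: share of peaks with 0 counts in each library by peak width. Correlations climb with width (0.0145 to 0.656 in Polg) and the second WT library has the most empty peaks in each class below 8003 bp (70.7% at 251 bp).

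The comparison over all peaks asked where the mark differed between Polg and WT cortical neurons. No peak passed. The edgeR quasi-likelihood test called 0 of 123573 tested peaks (0%) at an adjusted p under 0.05, with a smallest adjusted p of 0.535 by edgeR. Without adjustment 11486 peaks (9.29%) had a p under 0.05, of which 6484 were higher and 5002 lower in Polg. The biological coefficient of variation was 1.71, so the typical SD between libraries of 1 genotype exceeded the mean of the peak. DESeq2 called 37716 peaks and limma's voom called 0, with 35704 at an unadjusted p under 0.05. With an offset that follows the mean count (loess), edgeR called 233 peaks, 19 higher and 214 lower.

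The unadjusted calls lay mostly in narrow peaks. Among peaks of 251 bp, 15.4% had a p under 0.05, against 1.62% of peaks of at least 8003 bp. The middle 90% of log2 changes ran from -12.25 to 12.39 at 251 bp and from -0.82 to 0.84 in the widest class. Counted over tested peaks, both Polg libraries stood above both WT libraries at 24.8% and below both at 19.7%.

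The 10 peaks of smallest p on the higher side had 0 counts in both WT libraries and 11.5 to 29.9 CPM (the usual library-scaled counts, here over the TMM-scaled counts in tested peaks) in the Polg libraries. The first lay inside Nfasc, which codes for the axonal adhesion protein neurofascin, with 28.2 and 27.5 CPM in Polg and 0 counts in both WT libraries. Further ones lay inside L3mbtl4, Mrtfb, Cmc1, Kl and Csmd2, and between genes nearest to Thsd7a, Car8, Wdr20rt and Amd2. None passed (adjusted p = 0.535, edgeR). These peaks were 527 to 2097 bp wide, and none lay at a gene start.

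The 10 peaks of smallest p on the lower side had 7.82 to 83.6 CPM in WT, and 8 of them had 0 counts in both Polg libraries. One inside Anks1, an ankyrin repeat protein gene, was counted in all 4 libraries, with 1.05 and 1.54 CPM in Polg and 34.6 and 83.6 CPM in WT. A peak inside Camk4, which codes for a calcium and calmodulin-dependent kinase of neuronal nuclei, had 0.0251 and 0.00618 CPM in Polg and 15.9 and 30.5 CPM in WT. The others lay inside Arhgef28, Nrg2, Sec63, Ptprn2 and Adra1a, or between genes nearest to Lacc1, Glra1 and Gpr142. None passed (adjusted p = 0.535, edgeR).

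Peaks of at least 4000 bp were compared apart, a limit chosen after the values were seen, because at most 0.375% of peaks of 4001 to 7997 bp were empty in any library. Among 4028 such peaks edgeR called 0, with a smallest adjusted p of 0.896 by edgeR, and 196 (4.87%) had an unadjusted p under 0.05. Both Polg libraries stood above both WT libraries at 16.6% of them and below at 18.1%. Of the 15 of smallest p, 5 were above and 10 below. The first lay inside Lmo7, a LIM domain gene, with 60.1 and 36.5 CPM in Polg and 5.97 and 0.905 CPM in WT. The peak at the start of Wnt4, a secreted signalling ligand, had 9.43 and 13.3 CPM in Polg and 22.4 and 93.7 CPM in WT. Among peaks with the highest levels, the groups overlapped at Bcar3 and Bcl11a. The domain at Bcar3, 34661 bp long, had 379.4 and 466.4 CPM in Polg and 518.6 and 272.2 CPM in WT. The domain at the start of Bcl11a, a transcription factor gene of cortical projection neurons, had 238.7 and 251.3 CPM in Polg and 333.2 and 133.2 CPM in WT.

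The domain over the upstream end of Camk2a ranked 3 of 4028 wide peaks by p. Camk2a codes for the alpha subunit of calcium/calmodulin-dependent protein kinase II, an enzyme of excitatory synapses, and its promoter drives the transgene. The peak covered 21717 bp of chromosome 18 (60917694 to 60939410, mm10) and also held the start of the neighbouring sulfatase gene Arsi. It had 530.8 and 623.7 CPM in the Polg libraries, against 338.6 and 169.0 CPM in the WT libraries. The groups did not overlap, and the WT libraries differed from each other more than the Polg libraries did. Its log2 change was 1.19 (SE 0.37), with an adjusted p of 0.535 by edgeR, so it did not pass. By CPM it ranked first of all peaks in both Polg libraries, and 8th and 44th in the WT libraries. DESeq2, which called many peaks in this table where edgeR called none, gave an adjusted p of 0.000378 for it. Leaving out 1 library at a time gave log2 changes of 0.78, without the second WT library, to 1.77, without the first.

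Peaks farther inside Camk2a did not share that difference. The next domain, 13485 bp wide from 60940300 to 60953784, had 65.7 and 118.6 CPM in Polg and 113.2 and 71.1 CPM in WT. A peak of 3401 bp nearer the downstream end (60976651 to 60980051) had 19.2 and 26.2 CPM in Polg and 39.5 and 29.9 CPM in WT. Of the 9 other peaks in or within 5000 bp of Camk2a beside the upstream domain and that one, 8 overlapped between the groups. None of the peaks passed by edgeR.

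The upstream end of Camk2a had a peak of its own in CP and NAC too. In NAC, where it was 13829 bp wide, it had 696.5 and 789.2 CPM in Polg and 240.9 and 158.6 CPM in WT. Its log2 change there was 1.89 (SE 0.32, adjusted p = 0.000214, edgeR), and it was 1 of 5 peaks called of 105058 in NAC (0.00476%). The second WT library of NAC had 6415127 counts and 69.6% of peaks at 0, and the call was not run without it. The other 4 lay in Cul2 and at the starts of Kcmf1, Commd1 and Secisbp2, had Polg values at or near 0, and are named because of their values. In CP, where it was 3678 bp wide, it had 231.8 and 243.0 CPM in Polg and 138.6 and 5.62 CPM in WT. Its log2 change in CP was 1.72 (SE 1.21, adjusted p = 0.660, edgeR), so it did not pass. The second WT library of CP had 12048787 counts and 80.8% of peaks at 0. In PVT no peak covered that end. The peak next to it in PVT (60928931 to 60930539) had 9.21 and 5.51 CPM in Polg and 9.15 and 11.4 CPM in WT, and the wider one after it (60931451 to 60939207, 7757 bp) had 57.3 and 42.4 CPM in Polg and 62.6 and 57.4 CPM in WT. The difference between regions was not tested for this domain, because each region has its own peaks. Reads of a transgene with Camk2a promoter sequence and reads of the mouse's own locus cannot be told apart in these counts.

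Polg itself, on chromosome 7, had 4 peaks in the cortex. Reads of a transgene with Polg sequence and reads of the mouse's own Polg gene cannot be told apart in these counts. The peak inside the gene from 79453677 to 79456900 had 22.0 and 41.4 CPM in Polg, against 0.0112 and 14.9 CPM in WT. Its log2 change was 2.09 (SE 2.02, adjusted p = 0.9998, edgeR), and without the second WT library it was 11.36. Peaks that overlapped it had 13.3 and 14.6 CPM in Polg and 3.77 and 4.57 CPM in WT in PVT. They had 57.6 and 109.7 CPM in Polg and 47.3 and 15.3 CPM in WT in CP. In NAC 2 peaks overlapped it. The wider one (1977 bp) had 22.0 and 5.66 CPM in Polg and 2.78 and 0 CPM in WT. The narrower one (251 bp) had 0 and 13.0 CPM in Polg and was at 0 in both WT libraries, so the groups overlap there. Apart from that narrower NAC peak, both Polg libraries stood above both WT libraries at the cortical peak and at the peaks that overlapped it. The peak over the start of Polg went the other way in the cortex, with 2.03 and 0 CPM in Polg and 8.69 and 32.9 CPM in WT (1145 bp, log2 change -4.36, SE 2.60, adjusted p = 0.779, edgeR). In PVT the start peak had 2.80 and 7.15 CPM in Polg and 2.47 and 2.77 CPM in WT.

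**Figure D2:**
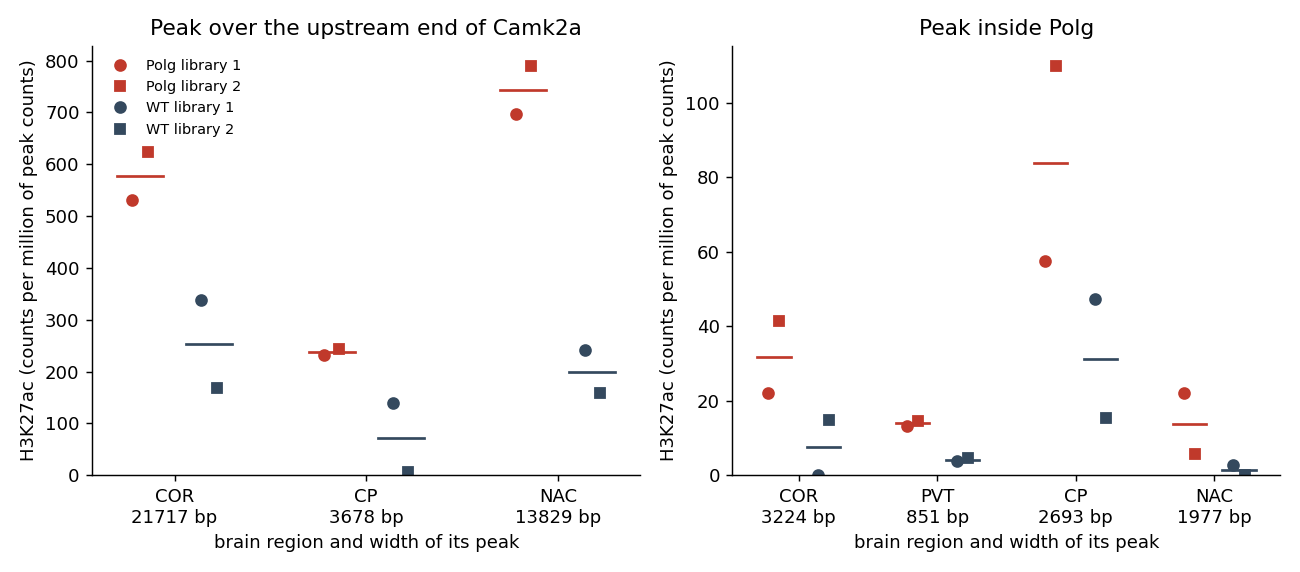
H3K27ac in CPM (vertical axes, from 0) at the peak over the upstream end of Camk2a (left) and at the peak inside Polg (right) in each region that has one, with the width of that region's peak in bp (in NAC, the wider of the 2 peaks inside Polg that overlap the cortical one). Points are single libraries, Polg left of WT, and bars are group means of 2 libraries. Both Polg libraries lie above both WT libraries at each peak drawn, and the Camk2a values reach 789.2 CPM in NAC.

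Counts were also summed over the peaks at each gene's start (within 1000 bp), where 10783 of 21900 protein-coding genes (49.2%) had a peak. For 2319 of these the sources used here do not say which end is the start, so either end was used. Genes named below for which this holds include Camk2a, Gria1, Grik1, Sstr1, Snap25, Syt7, Mrps28, Thra, Per2, Dlx5, Foxp2, Mbp, Spi1, Cdh5, Reps1 and Wscd2. Their peaks may lie at the far end of the gene. No gene start passed among 10539 tested (0%), with a smallest adjusted p of 0.999 by edgeR, and 323 (3.06%) had an unadjusted p under 0.05. DESeq2 called 804 gene starts and voom 0. The biological coefficient of variation was 1.17. In 17.8% of tested genes both Polg libraries stood above both WT libraries, and in 18.2% below, which is the background for the lists that follow. All values that follow are CPM of gene-start counts, scaled apart from the peak CPM above, and every adjusted p for a gene start named was 0.999 by edgeR.

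4 promoters are printed because the groups did not overlap at their start peaks, which include that of Polg. They come from RefSeq (GRCm38.p6, which is mm10), run from 250 bases before to 50 after the gene start, 5′ to 3′ on the gene's strand, and lie wholly inside the start peak. Capitals mark GGGCGG, the GC box bound by Sp factors, on either strand. Polg is at chr7:79466224-79466523 (minus strand), Cdh8 at chr8:99416422-99416721 (minus), Tbr1 at chr2:61804203-61804502 (plus) and Kat2a at chr11:100712418-100712717 (minus).
Polg: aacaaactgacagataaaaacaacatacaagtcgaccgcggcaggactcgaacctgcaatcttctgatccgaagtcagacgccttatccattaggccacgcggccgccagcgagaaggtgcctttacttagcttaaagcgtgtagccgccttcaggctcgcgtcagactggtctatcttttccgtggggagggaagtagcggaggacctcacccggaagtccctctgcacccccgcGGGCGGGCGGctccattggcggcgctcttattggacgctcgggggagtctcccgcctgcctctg
Cdh8: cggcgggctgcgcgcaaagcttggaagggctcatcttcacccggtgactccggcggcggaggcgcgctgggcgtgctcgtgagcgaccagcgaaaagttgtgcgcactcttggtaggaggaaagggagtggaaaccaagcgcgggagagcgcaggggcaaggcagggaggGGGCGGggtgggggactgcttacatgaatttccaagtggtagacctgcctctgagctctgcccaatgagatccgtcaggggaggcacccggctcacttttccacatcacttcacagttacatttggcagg
Tbr1: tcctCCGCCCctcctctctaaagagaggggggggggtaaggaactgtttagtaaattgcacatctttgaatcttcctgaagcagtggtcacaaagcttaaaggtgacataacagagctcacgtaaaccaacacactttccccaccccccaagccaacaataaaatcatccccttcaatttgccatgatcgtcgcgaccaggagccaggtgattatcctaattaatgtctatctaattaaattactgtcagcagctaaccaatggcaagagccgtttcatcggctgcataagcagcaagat
Kat2a: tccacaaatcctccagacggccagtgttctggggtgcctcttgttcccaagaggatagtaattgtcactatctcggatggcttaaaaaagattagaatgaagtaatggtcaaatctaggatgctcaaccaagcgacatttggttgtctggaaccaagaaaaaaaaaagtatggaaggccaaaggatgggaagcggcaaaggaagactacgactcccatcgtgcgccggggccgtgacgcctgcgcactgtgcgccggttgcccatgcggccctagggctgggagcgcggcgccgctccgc
Polg held 2 overlapping GC boxes, Cdh8 and Tbr1 1 each and Kat2a 0. GC boxes were found in 46.3% of all 17492 promoters of that length and in 63.9% of the 8279 with a tested start peak. None of the 4 held TGACGTCA (the cyclic AMP response element), CAGATG (an E-box) or TGANTCA (the AP-1 site) on either strand. These occur in 2.34%, 14.8% and 7.08% of all promoters. A match describes the letters in this window and no binding.

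The identity of the cells was read from markers. Of 20 excitatory neuron markers 19 had a start peak, and Nptx1 had none. Of 30 genes on the list of cortical projection neurons, mostly transcription factors, 24 had one. Bcl11b, Sox5, Pou3f1, Fezf1, Nfia and Rxfp1 had none. Neurod6, a factor of cortical projection neurons, had a start domain of 14830 bp with 860.0 and 515.3 CPM in Polg and 738.2 and 445.2 CPM in WT. Of 24 markers of GABA neurons 14 had a start peak, beside 49.2% of all protein-coding genes. Erbb4, Dlx5 and Nxph1 were among those with one, and Gad1, Slc32a1, Pvalb and Sst among the 10 without. Of the 13 tested 1 was above and 1 below, with a median of 0.04. Dlx5, an interneuron factor gene, had 24.1 and 20.3 CPM in Polg and 2.9999 and 3.62 CPM in WT, and Nxph1, an interneuron neurexophilin gene, had 0 and 5.56 CPM in Polg and 37.4 and 8.21 CPM in WT. Start peaks were found for 4 of 15 astrocyte, 2 of 15 oligodendrocyte lineage, 3 of 15 microglia and 5 of 15 vascular markers, and Aqp4, Mog, Olig1, Cx3cr1 and Cldn5 had none. Fewer cells of a type and less mark per cell cannot be told apart here.

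Of 24 tested transcription factors of cortical projection neurons, 3 were above and 3 below, with a median log2 change of 0.13, beside -0.02 over all tested genes. Tbr1, which specifies deep-layer projection neurons, had 571.2 and 490.1 CPM in Polg, against 307.3 and 249.3 CPM in WT. The groups did not overlap, and the log2 change over this 9071 bp domain was 0.93 (SE 0.44). Emx1, a factor of the dorsal telencephalon, lay below, with 130.3 and 119.1 CPM in Polg and 299.5 and 228.9 CPM in WT. Pou3f2 and Bhlhe22, upper-layer factors, lay above, and Tle4, a deep-layer corepressor, lay below. Emx2 had the highest mean per kb of this list, with 51.3 and 0 CPM in Polg and 23.2 and 10.4997 CPM in WT in a peak of 255 bp.

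Excitatory neuron markers had a median of 0.24, with 3 of 19 above and 1 below. It was -0.09 without the first Polg library and -0.01 without the second WT library. Gria1, an AMPA receptor subunit gene, had 181.9 and 101.2 CPM in Polg and 38.5 and 27.7 CPM in WT at either gene end (2836 bp). Camk2a, the highest of the list per kb, had 3312 and 3199 CPM in Polg and 1983 and 841.8 CPM in WT over both gene ends. Slc17a7, the vesicular glutamate transporter gene of the cortex, overlapped, with 338.2 and 63.0 CPM in Polg and 152.5 and 173.3 CPM in WT.

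Of 18 glutamate receptor genes 5 were above and 3 below, with a median of 0.44. Grik1, a kainate receptor subunit gene, had 97.5 and 285.6 CPM in Polg and 34.2 and 36.9 CPM in WT. Of 11 GABA receptor genes 4 were above and 0 below, with a median of 0.65, the highest of the lists with at least 10 tested members, and 0.35 to 1.01 when 1 library was left out. Gabra2, an alpha subunit gene, had 413.6 and 343.0 CPM in Polg and 250.1 and 231.6 CPM in WT. Of 30 neuromodulator receptor genes 8 were above and 5 below, with a median of -0.10. Sstr1, a somatostatin receptor gene, had 531.0 and 375.9 CPM in Polg and 304.7 and 47.7 CPM in WT. Hcrtr2, the second orexin receptor gene, had 149.7 and 116.4 CPM in Polg and 86.0 and 29.7 CPM in WT.

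Of 29 sodium, calcium and HCN channel genes 9 were above and 2 below, with a median of 0.40, which was -0.04 without the second WT library. Hcn2, a pacemaker channel gene that shares its peak with Bsg, had 256.4 and 140.5 CPM in Polg and 82.9 and 111.7 CPM in WT. Cacng8, an auxiliary subunit gene of AMPA receptors, was at 0 in both Polg libraries and had 21.0 and 30.7 CPM in WT. Cacna1c, the L-type calcium channel gene linked to bipolar disorder, lay below, with 35.5 and 32.2 CPM in Polg and 81.9 and 89.1 CPM in WT. Of 36 potassium channel genes 8 were above and 4 below, with a median of 0.26. Kcnd2, which carries the A-type current of dendrites, had 727.6 and 374.8 CPM in Polg and 311.7 and 237.8 CPM in WT. Kcnt2, a sodium-activated channel gene, had 250.02 and 142.5 CPM in Polg and 107.1 and 47.6 CPM in WT. Summed over the sodium, calcium and HCN list, levels were 4585 and 3460 CPM in Polg and 4081 and 2031 CPM in WT, so the second WT library was the low one.

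Synaptic vesicle genes showed 4 of 35 above and 1 below, with a median of -0.10. Snap25, a fusion protein gene, had 385.5 and 142.1 CPM in Polg and 158.2 and 27.7 CPM in WT, which overlap. Syt7, a calcium sensor gene, had 13.8 and 66.2 CPM in Polg and 199.9 and 57.8 CPM in WT, which overlap too. Neuropeptide precursors were 2 above and 1 below of 12, with a median of 0.40, which was -0.08 without the second WT library. Cartpt had 18.1 and 43.1 CPM in Polg, against 0.126 and 0 CPM in WT. Pdyn, the dynorphin precursor gene, had 22.8 and 37.4 CPM in Polg, against 0 and 0.353 CPM in WT. Both peaks were under 1000 bp wide.

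Of 29 genes near variants associated with bipolar disorder, 5 were above and 4 below, with a median of 0.28. Cdh8, a cadherin gene, separated the groups with little spread within each, with 383.8 and 351.0 CPM in Polg and 92.6 and 88.2 CPM in WT. Its log2 change was 2.02 (SE 0.52, adjusted p = 0.999, edgeR) over a peak of 4218 bp. It was 1.98 to 2.09 when 1 library was left out. DESeq2, which called many gene starts where edgeR called none, gave an adjusted p of 5.6e-07. At the Cdh8 start in PVT the values were 116.1 and 193.5 CPM in Polg and 189.9 and 127.2 CPM in WT, which overlap. In CP they were 189.4 and 38.3 CPM in Polg and 22.5 and 0 CPM in WT, above as in the cortex (808 bp, log2 change 3.34, SE 4.01, adjusted p = 0.9998, edgeR). The second WT library of CP, which had the 0 there, was at 0 in 80.8% of its peaks. Srpk2, a splicing kinase gene, had 305.3 and 157.0 CPM in Polg and 69.4 and 53.1 CPM in WT.

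**Figure D3:**
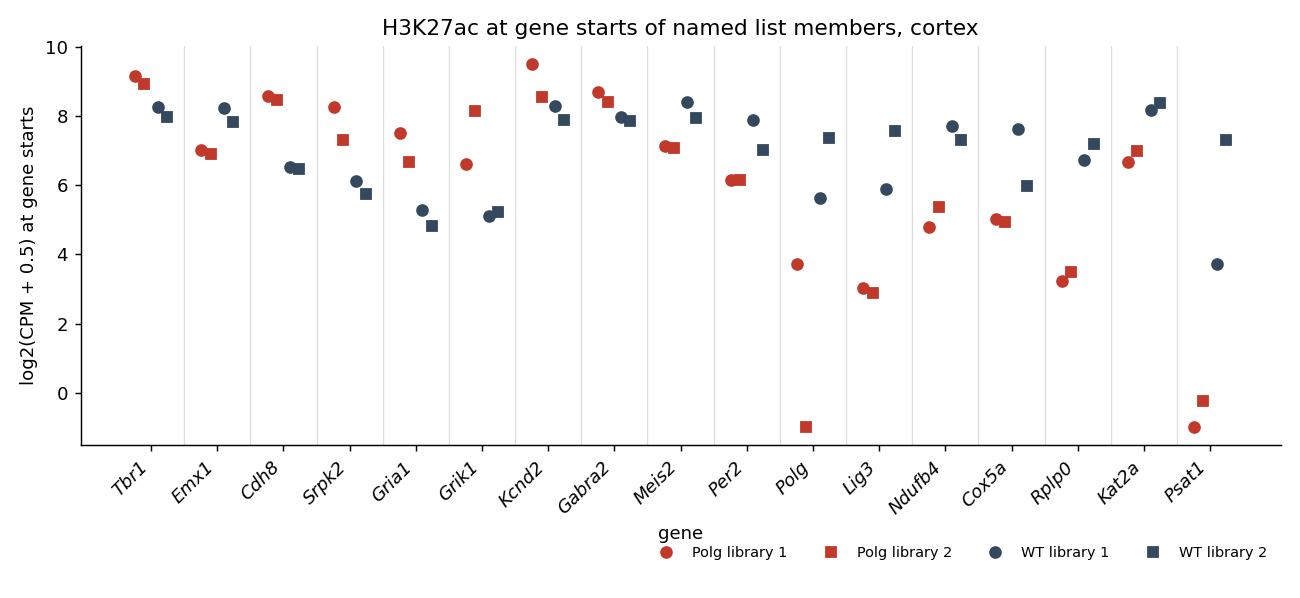
H3K27ac at the start (or either end) of 17 named genes as log2(CPM + 0.5), vertical axis, in the 4 cortical libraries, Polg (red) left of WT (dark blue); circles are library 1 and squares library 2. The groups separate at each of these genes, which were picked for small p within their lists except Polg, and the distance within a group is smallest at genes such as Cdh8 and largest at Polg and Psat1.

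Genes of mitochondrial DNA replication and transcription, the machinery Polg belongs to, had 8 of 21 members above and 8 below (38.1% each), with a median of -0.18. Polg had 12.6 and 0 CPM in Polg mice and 48.8 and 163.6 CPM in WT. Lig3, the ligase of mitochondrial DNA, had 7.71 and 6.86 CPM in Polg and 58.5 and 189.3 CPM in WT. Slc25a36, a pyrimidine nucleotide carrier gene, had 9.35 and 47.0 CPM in Polg and 82.9 and 258.3 CPM in WT. Twnk, the helicase that opens mitochondrial DNA ahead of the polymerase, had 27.9 and 40.4 CPM in Polg, against 1.93 and 0 CPM in WT. Tefm, a transcription elongation factor gene, had 54.5 and 64.3 CPM in Polg and 15.7 and 20.7 CPM in WT. Tfam, which packs mitochondrial DNA, overlapped, with 50.9 and 26.0 CPM in Polg and 13.2 and 73.9 CPM in WT.

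Of 26 nuclear complex I genes 4 were above and 8 below, with a median of -0.85, which was -0.14 without the first WT library. Ndufb4, an accessory subunit gene, had 27.2 and 41.4 CPM in Polg and 209.9 and 157.3 CPM in WT. Ndufb11, on the X chromosome and sharing its 480 bp peak with Rbm10, was at 60.1 and 72.7 CPM in Polg and at 0 in both WT libraries. Of 31 genes of complexes II to V 1 was above and 8 below, with a median of -0.32. Cox5a, a subunit gene of cytochrome c oxidase, had 32.1 and 29.9 CPM in Polg and 196.1 and 62.9 CPM in WT. Atp5l, a subunit gene of ATP synthase, had 47.4 and 61.7 CPM in Polg and 114.7 and 175.3 CPM in WT. Of 49 mitochondrial ribosomal protein genes 14 were above and 8 below, with a median of 0.03. Mrpl21 had 3.27 and 21.1 CPM in Polg and 41.1 and 158.6 CPM in WT. Mrps28 had 194.5 and 356.9 CPM in Polg and 128.3 and 98.5 CPM in WT.

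Cytosolic ribosomal protein genes had 3 of 50 above and 10 below, with a median of -0.31. Rplp0, a protein of the ribosomal stalk, had 8.80 and 10.8 CPM in Polg and 105.2 and 144.9 CPM in WT. Rpl14 had 13.2 and 19.9 CPM in Polg and 60.7 and 150.4 CPM in WT. Retrocopies of ribosomal protein genes share sequence with them, and how such reads were placed is not given in the sources used here.

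Genes that write, erase and read histone acetylation had 4 of 27 above and 10 below, with a median of -0.95, which was 0.22 without the second WT library. Kat2a, the acetyltransferase GCN5, had 101.7 and 126.1 CPM in Polg and 290.9 and 331.5 CPM in WT over 4546 bp shared with Hspb9. Its log2 change was -1.45 (SE 0.53, adjusted p = 0.999, edgeR), and -1.61 to -1.28 when 1 library was left out. Ep300, which codes for p300, had 10.4 and 34.2 CPM in Polg and 47.6 and 67.3 CPM in WT. Hdac7 had 177.6 and 359.0 CPM in Polg and 605.3 and 629.5 CPM in WT. Brd3, a bromodomain reader gene, was at 0 in both Polg libraries and had 28.0 and 47.8 CPM in WT in a peak of 1057 bp. Hdac5 lay above, with 281.9 and 106.7 CPM in Polg and 80.6 and 26.1 CPM in WT. Kat2a went the other way in PVT, with 34.3 and 15.2 CPM in Polg and 5.66 and 4.92 CPM in WT, in a peak of 665 bp. In NAC it lay below as in the cortex, with 0 and 30.4 CPM in Polg and 61.6 and 240.7 CPM in WT. In CP the groups overlapped, with 31.4 and 0 CPM in Polg and 95.6 and 0 CPM in WT.

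Of 16 integrated stress response genes 2 were above and 3 below, with a median of 0.03. Psat1, a serine synthesis gene, had 0 and 0.348 CPM in Polg and 12.6 and 158.0 CPM in WT, and Eif2ak3, which codes for the kinase PERK, had 234.4 and 69.3 CPM in Polg and 42.3 and 45.8 CPM in WT. Of 14 genes of the mitochondrial unfolded protein response and chaperones 3 were above and 3 below, with a median of -1.03, which was 0.11 without the first WT library. Hspa1a was at 0 in both Polg libraries and had 28.7 and 11.2 CPM in WT. Of 19 clock genes 2 were above and 2 below, with a median of 0.03, and Per2 had 70.4 and 70.0 CPM in Polg and 236.5 and 128.6 CPM in WT. Of 29 immediate early and activity genes 3 were above and 3 below, with a median of 0.26, which was -0.07 without the second WT library. Gadd45g had 71.4 and 90.1 CPM in Polg and 260.5 and 129.5 CPM in WT, and Dusp6, a phosphatase gene that limits ERK, had 635.1 and 386.2 CPM in Polg and 345.0 and 281.9 CPM in WT. Rora, a clock-linked nuclear receptor gene, had 147.1 and 121.0 CPM in Polg and 56.4 and 94.4 CPM in WT. Mitochondrial dynamics and mitophagy genes were 4 above and 2 below of 22, biogenesis regulators 2 above and 1 below of 12, and glycolysis genes 3 above and 4 below of 26. In these Dnm1l, the fission GTPase gene, had 21.0 and 30.2 CPM in Polg and 94.95 and 97.1 CPM in WT. Yme1l1, an inner membrane protease gene, had 70.6 and 180.7 CPM in Polg and 10.52 and 0 CPM in WT. Creb1, a transcription factor gene, had 21.1 and 126.2 CPM in Polg and 121.5 and 191.3 CPM in WT, which overlap. Thra, a thyroid hormone receptor gene, had 514.2 and 485.5 CPM in Polg and 445.4 and 212.1 CPM in WT. Pfkl, a phosphofructokinase gene, had 140.0 and 140.5 CPM in Polg and 277.4 and 272.6 CPM in WT. Aldoc, an aldolase gene, had 6.78 and 72.0 CPM in Polg and 0.821 and 0 CPM in WT.

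Clustered protocadherin genes, whose products give neurons their surface identity, had 10 of 11 tested members below and 1 above, with a median of -0.73. They are not 11 separate measurements, because the 9 gamma members drew on 5 peaks and all 11 on 7, and 5 of the gamma genes had identical sums. Pcdhgc4 had 337.8 and 332.3 CPM in Polg and 510.7 and 554.2 CPM in WT. Pcdhac2 had 152.5 and 157.0 CPM in Polg and 252.5 and 252.3 CPM in WT. The groups did not overlap at either gene. Which end of these genes is the start is not given in the sources used here, so either end was used. Pcdhgc3 and Pcdhgc4 both end at 37841873 on chromosome 18. Both share peaks with other gamma genes and with Diaph1, which is not a protocadherin gene. The lower values can therefore not be placed at protocadherin starts. Pcdha4 lay above, with 56.8 and 44.5 CPM in Polg and 6.60 and 38.2 CPM in WT.

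Genes of projection neurons of the neighbouring striatum, some of which cortical neurons express too, had 0 of 11 above and 5 below, with a median of -0.41. Meis2 had 141.5 and 133.9 CPM in Polg and 340.1 and 247.1 CPM in WT. Pde10a, a striatal phosphodiesterase gene, had 4.83 and 47.8 CPM in Polg and 89.4 and 200.4 CPM in WT. Summed over the list, levels were 819.6 and 1259 CPM in Polg, against 1625 and 1390 CPM in WT. Drd1 overlapped, with 92.5 and 147.8 CPM in Polg and 156.2 and 61.3 CPM in WT. Of the 12 genes on the thalamic list, mostly transcription factors, 3 had a start peak, and Tcf7l2, Lef1 and Gbx2 had none. Of the 2 tested, Rora, also a clock gene with values given above, was above and Foxp2 below. Foxp2, which is on the list of cortical projection neurons too, had 2.57 and 5.79 CPM in Polg and 33.6 and 15.97 CPM in WT. The part of neighbouring tissue in the values of other genes was not tested.

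Of the markers of other cells, 0 of 3 astrocyte and 0 of 3 microglia genes tested separated the groups in either direction. Summed levels were 572.4 and 346.2 CPM in Polg against 527.2 and 307.1 CPM in WT for astrocyte markers, and 684.9 and 404.0 CPM in Polg against 647.1 and 517.2 CPM in WT for oligodendrocyte markers. For microglia they were 188.2 and 192.1 CPM in Polg and 244.3 and 308.8 CPM in WT, so both Polg sums lay below both WT sums. Vascular markers had 395.3 and 264.3 CPM in Polg, against 170.6 and 88.1 CPM in WT, and were the only list of other cells whose sums did not overlap upward. Of the 5 vascular genes tested, Kdr and Cdh5 were above and Slco1c1 was below. Mbp, a myelin gene, had 677.2 and 395.2 CPM in Polg and 617.6 and 474.3 CPM in WT at either gene end. Cnp, another, had 7.71 and 8.79 CPM in Polg and 29.5 and 42.9 CPM in WT. Agt, the angiotensinogen gene of astrocytes, had 116.4 and 22.0 CPM in Polg and 62.6 and 152.5 CPM in WT. Spi1, a microglial factor gene, had 59.6 and 28.6 CPM in Polg and 134.7 and 35.5 CPM in WT, and Irf8 53.7 and 14.1 CPM in Polg and 15.6 and 133.6 CPM in WT. Kdr, a receptor of endothelial cells, had 155.2 and 21.9 CPM in Polg and 1.77 and 0 CPM in WT, in a peak of 828 bp. Cdh5, the endothelial cadherin, had 6.47 and 44.0 CPM in Polg and was at 0 in both WT libraries. Slco1c1, a transporter gene of brain endothelial cells, was at 0 in both Polg libraries and had 22.6 and 5.12 CPM in WT, in a peak of 251 bp. Their part in the results above was not tested.

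**Figure D4:**
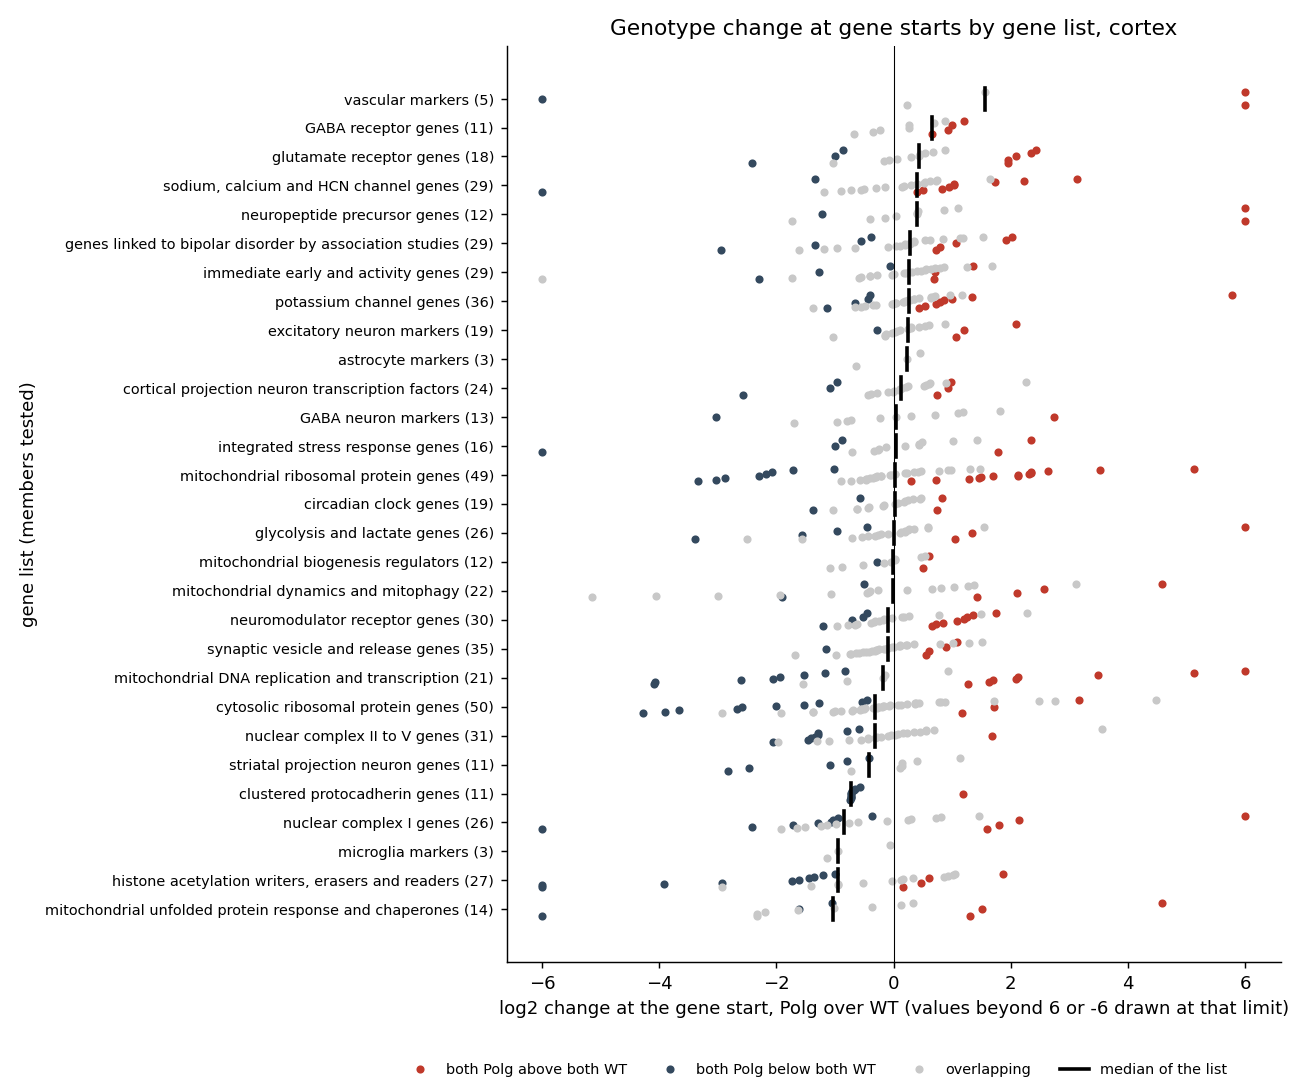
Log2 change at the gene start (Polg over WT, horizontal axis; values beyond 6 or -6 drawn at that limit) of each tested member of the 29 lists with at least 3 tested members, ordered by the median (black bar). Red and dark points have both Polg libraries above or below both WT libraries and grey points overlap. No point passed the test by edgeR, and GABA receptor genes (median 0.65) and histone acetylation genes (median -0.95) stand near the ends.

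The gene starts of smallest p, named after their values were seen, mostly paired a filled group with an empty one. Of the 10 above, 7 were at 0 in both WT libraries, and of the 10 below, 5 were at 0 in both Polg libraries. They are not all separate measurements, because some share a peak. Gskip shares its peak with Atg2b and Polr2i with Tbcb above, and Zfp664 shares its peak with Ccdc92 below. Zfp746 had the smallest p, with 0 counts in both Polg libraries and 48.4 and 167.4 CPM in WT. Cdon, a receptor of hedgehog signalling, had 140.4 and 69.3 CPM in Polg and 0.0947 and 0 CPM in WT. Among the 6835 tested gene starts with at least 100 counts in all 4 libraries, 1115 stood above and 1163 below. Of the 40 of smallest p there, 12 were above and 28 below, and some of these share a peak too, such as Ppp1r3d with Fam217b and Derl2 with Mis12. Reps1, an endocytosis gene, had 15.7 and 11.003 CPM in Polg and 128.3 and 243.5 CPM in WT. Acsl6, which codes for an acyl-CoA synthetase of brain, had 46.1 and 53.8 CPM in Polg and 321.3 and 194.3 CPM in WT. Kansl1l had 314.8 and 238.1 CPM in Polg and 75.1 and 41.1 CPM in WT.

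Levels per kb were compared between genes over the lists. The 10 list members of highest mean CPM per kb were Mrpl37, Ndufb1, Mrpl32, Atp5g3, Uqcrc1, Kcnd2, Opa1, Ndufb7, Rpl15 and Hspd1, at 117.3 to 183.9 CPM per kb. Of these, 9 rested on peaks under 1000 bp, and 7 overlapped between the groups. Uqcrc1 had 9.66 and 95.5 CPM in Polg and 74.1 and 2.74 CPM in WT, so a library of each genotype was high and a library of each was low.

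The position of peaks was compared between the groups. Peaks between genes had a median log2 change of 0.31, peaks inside genes 0.00 and peaks at gene starts -0.09. Counts between genes made up 38.3% and 38.0% of the total in Polg, against 36.5% and 31.9% in WT, and those at gene starts 14.2% and 16.1% in Polg, against 14.7% and 18.6% in WT. The second WT library was therefore at the edge of both ranges. Peaks on the X chromosome had a median log2 change of 0.66, with 32.3% above and 15.9% below, and took 1.62% and 1.69% of counts in Polg, against 1.40% and 1.26% in WT. Medians of the autosomes ran from -0.19 on chromosome 7 to 0.27 on chromosome 3. The X peaks were also narrower, with a median width of 405 bp against 528.5 to 639 bp on the autosomes. Over all chromosomes, tested peaks of 252 to 500 bp had a median log2 change of 0.32. The part that width plays on X was not tested. In the other regions too, both Polg libraries had a larger X share than both WT libraries. It was 1.18% and 1.15% in Polg and 1.10% and 1.08% in WT in PVT. In CP it was 2.49% and 2.50% in Polg and 2.42% and 1.99% in WT. In NAC it was 2.78% and 2.62% in Polg and 2.25% and 1.59% in WT. The 3 cortical peaks on Y held 1527 and 7253 counts in Polg and 4347 and 11 in WT. Leaving X and Y out of the fit left the number of peaks called at 0 by edgeR.

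The genotype difference in the cortex was set against the mean of the other regions over 4566 genes with a start peak in all 4 tables. It passed for 1 gene (0.0219%), Wscd2, which codes for a WSC domain protein. Wscd2 was at 0 in both cortical Polg libraries and had 34.6 and 9.18 CPM in cortical WT, in a peak of 713 bp at a gene end. It had 261.2 and 198.3 CPM in Polg and 223.1 and 226.4 CPM in WT in PVT, over 8905 bp. The difference was -11.32 (SE 1.43, adjusted p = 0.0170, edgeR), and 190 genes had an unadjusted p under 0.05. The call was lost without either cortical Polg library and with a replicate block. Rundc1, Snupn, Arl5a and Jmjd1c followed and did not pass, and each was at 0 in both libraries of 1 cortical genotype. Summed over either gene end, Camk2a had a difference of 0.19 (SE 1.10, adjusted p = 0.99997, edgeR), with only the downstream end measured in PVT.

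Peaks of the other regions were matched to cortical peaks where they overlapped by at least 50% of the shorter peak. A match was found for 25.5% of tested cortical peaks in PVT, 15.9% in CP and 22.6% in NAC. The log2 change had the same sign as in the cortex at 52.4% of matched peaks in PVT, 53.4% in CP and 53.9% in NAC. Among matched cortical peaks of at least 4000 bp it was 54.1% in PVT, 53.9% in CP and 56.1% in NAC. The labels do not say whether the regions share animals, and these shares describe peaks that are not independent.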

How the data were processed

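The authors deposited raw counts per peak for each region and mark, with 1 column per library. Per the submitters' processing notes, the tools named are STAR, HOMER, featureCounts, Subread and DESeq2 with the build mm10. No source used here gives tool versions, the peak threshold or how duplicates were handled. Columns marked TG were taken as Polg(D181A), the only genotype besides WT among the labels of these samples.

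Cortical counts were TMM-scaled and tested with edgeR 4.0.16 (R 4.3.3; filterByExpr, quasi-likelihood test, Benjamini-Hochberg adjustment) at an adjusted p of 0.05. Only the 4 cortical libraries entered that fit. DESeq2 1.42.0 and limma 3.58.1 were alternatives. The fit was also run on simulated counts with known changes, and how many of these it found is not reported here. Peaks within 1000 bp of a RefSeq gene start were summed per gene. The difference between cortex and the mean of PVT, CP and NAC was tested with edgeR on genes present in all 4 tables. "Above" and "below" mean that both Polg libraries lay above or below both WT libraries. Depth limits the values: the second WT library had 52566179 counts and the first 197650530.

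Peaks in or near Polg and Camk2a, the 10 peaks of smallest p in each direction, the 2 genes of smallest p in each list, the 5 of the regional comparison and the highest list members per kb were named by rule. Other genes were named after their values were seen, and a few genes under these rules are not reported here. The libraries and the 31 gene lists were chosen with earlier results of these data known.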

Additional observations from a re-analysis of the deposited data

Results flagged for a closer look

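At Wscd2 the genotype difference in the cortex departed from the mean of the other regions by -11.32 on the log2 scale (SE 1.43, adjusted p = 0.0170, edgeR test of the difference itself). The cortical value rests on 1 peak of 713 bp with 0 counts in both Polg libraries and 1095 and 104 counts in the WT libraries. In PVT, CP and NAC the gene was measured over 2 peaks spanning 4292 to 8905 bp. In CP it had 383.9 and 325.4 CPM in Polg and 592.1 and 211.8 CPM in WT, and in NAC 398.4 and 486.3 CPM in Polg and 357.7 and 355.5 CPM in WT. The part that the different peak sets play was not tested.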

How the results depend on the processing

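The number of cortical peaks called was 0 by edgeR with none or more of the low-count filtering, with scaling by totals or by the size factors of DESeq2, with thinned libraries, without X and Y, with 1 library left out and by voom. It was 233 with a loess offset (19 higher, 214 lower), 37716 with DESeq2 (19269 higher, 18447 lower) and 10 with a replicate block (1 higher, 9 lower). Same-numbered libraries did not deviate together (r = 0.0333 over peaks, 0.0729 over gene starts), so the block pairs libraries by number only. Gene starts called were 804 with DESeq2 (328 higher, 476 lower) and 0 under the other alternatives run. The regional comparison called 297 genes with DESeq2, 2 with voom, 0 with the replicate block and 0 to 1 with 1 cortical library left out. With reciprocal overlap the same-sign share was 54.88% in CP and 54.88% in NAC. The cause of these differences was not tested.

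Over 136 single peaks and genes, 1813 values kept direction and side of the threshold, 93 passed where the main test did not, 4 no longer passed and 45 changed sign. Of 29 list medians, 367 values stayed within the spread and 68 moved. Sign changes of log2 changes inside Camk2a were these. The peak from 60940300 had 0.0196 without a filter, 0.0013 without X and Y and -0.48 to 0.38 with 1 library left out. With 1 library left out, the peak from 60954134 had -8.61 to 11.34, that from 60972956 -0.27 to 0.18, that from 60983680 -2.80 to 0.83 and that from 60989225 -2.33 to 0.24. The peak from 60970553 had 6.09 by voom, 3.64 with the replicate block and -1.82 to 11.61 with 1 library left out, and that from 60986858 had 0.75 by voom and -2.86 to 2.62. At gene starts, a window of 2500 bp gave -0.76 for Dlx5, 0.062 for Agt and 0.49 for Jmjd1c, and a window of 0 bp gave 0.14 for Pde1b. Voom gave -2.96 for Mrpl32, 0.21 for Ndufb7, -4.90 for Emx2 and 0.17 for Trem2, and the replicate block gave -0.97 for Mrpl32, -4.14 for Emx2 and -0.44 for Erbb4. With 1 library left out, values ran from -2.26 to 0.16 for Agt, -0.44 to 0.31 for Mbp, -1.59 to 0.31 for Spi1, -2.38 to 1.14 for Irf8, -4.76 to 2.47 for Mrpl32, -1.99 to 4.26 for Uqcrc1, -1.20 to 0.51 for Ndufb7, -0.095 to 3.40 for Rpl15, -4.64 to 2.00 for Hspd1, -11.70 to 1.60 for Emx2, -3.33 to 2.17 for Erbb4, -0.64 to 0.38 for Trem2 and -0.20 to 2.32 for Acta2.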
